A study of Mus musculus with 4 samples.

Results

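The 10 genes described here, Eda2r, Ccng1, Mdm2, Zmat3, Phlda3, Trp53inp1, Bax, Sesn2, Gdf15 and Aen, are established transcriptional targets of the tumour suppressor p53. They were taken by gene symbol from a count table of 25239 symbols, and all 10 were found there and were among the 15522 genes tested. RNA-seq of poly(A) RNA was carried out on cultured primary chondrocytes of the mouse, the cell type of cartilage. The conditional knockout (cKO) group had 2 libraries from mice with floxed Tiki2 alleles (gene symbol Trabd2b) and a Col2a1-Cre/ERT transgene, and the control group had 2 libraries from Tiki2 fl/fl mice without it. All 4 cultures received 4-hydroxytamoxifen, the ligand that activates the Cre, so the controls carry the floxed alleles and the drug but no Cre. The driver is that of the type II collagen gene, so recombination is limited to cells that use it. An effect of the Cre itself and loss of Tiki2 cannot be told apart in this design. The sources used here do not give strain, age or length of treatment, nor whether replicates came from separate animals. The p-values therefore refer to the spread among these 4 libraries, part of which may be technical.

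p53 is a transcription factor that is kept low by constant degradation and is stabilised by DNA damage and other stresses. It then binds response elements near its target genes and raises transcripts for cell cycle arrest, DNA repair, metabolic adjustment and cell death, together with inhibitors that end the response. In cartilage, loss of chondrocytes by death and senescence is a known feature of ageing and osteoarthritis. Several of the 10 genes also answer to other regulators, above all Gdf15 and Sesn2, which are induced by the stress factors ATF4 and CHOP.

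Total counts ranged from 66750140 to 78873054 per library. The target itself, Trabd2b, had 292 and 363 CPM (counts scaled to library depth) in the cKO libraries and 436 and 415 CPM in the controls. Its log2 fold change was -0.38 ± 0.11 (SE), with an edgeR adjusted p of 0.148, and its counts cover the whole gene, not the floxed part alone. It passed with DESeq2 (adjusted p = 0.00585). In edgeR its log2 fold change was -0.54 without cKO replicate 2 and -0.23 without cKO replicate 1. Control replicate 1 stood apart in sex. Xist, the X-inactivation RNA, had 73 and 171 counts in cKO, against 112185 and 36 counts in controls, and the Y-linked Ddx3y was listed at 0 in control replicate 1 alone, so the 2 control libraries were not repeats of a single sample. Of 13 cartilage markers, all were lower in both cKO libraries, against 24.9% of all genes. By edgeR 11 fell past the threshold, against 0.908% of all genes. With the replicate number as a block 2 of the 13 passed, where 20 of all genes were called lower. Their median log2 fold change was -1.29, and it was -1.37 without control replicate 1 and -1.19 without control replicate 2. Summed levels were 16694 and 12489 CPM in cKO against 28377 and 33018 CPM in controls. The sum of 10 fibroblast markers was 13059 and 13890 CPM in cKO against 11105 and 10818 CPM in controls. In 8 of the 10 both cKO libraries lay above both controls, against 24.9% of all genes. Lum overlapped, and Dcn was lower in both cKO libraries (log2 fold change -0.24). The sum of 8 adipocyte markers was 335 and 545 CPM in cKO against 219.6 and 221 CPM in controls. Of these, 6 lay above both controls in both cKO libraries, and Pparg and Cidec overlapped. Macrophage markers summed to 21.3 and 22.7 CPM in cKO against 24.8 and 18.0 CPM in controls with Tyrobp at 0 throughout, and endothelial markers to 4.29 and 4.01 CPM in cKO against 2.76 and 4.06 CPM in controls with Emcn at 0. Skeletal muscle markers summed to 67.6 and 14.5 CPM in cKO against 4.85 and 31.2 CPM in controls, and 4 globin genes of the erythroid list were at 0. In bulk RNA fewer cells of a type and less RNA per cell cannot be told apart, and the part of cell make-up in the differences below was not tested.

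The clearest differences among the p53 response genes were in Eda2r and Ccng1, which were higher in cKO and passed at 0.05 after Benjamini-Hochberg adjustment of p-values from edgeR's quasi-likelihood test. A further 5 genes, Phlda3, Trp53inp1, Zmat3, Aen and Mdm2, were higher in both cKO libraries than in either control without passing. Bax and Sesn2 overlapped between genotypes. Gdf15 was lower in both cKO libraries and did not pass. Thus 2 of the 10 were called higher and 0 lower, where 0.393% of all genes tested were called higher and 0.908% lower. With groups that did not overlap, 7 of the 10 stood above the controls and 1 below, against 24.9% of all genes above and 24.9% below. For 7 of the 10 the edgeR p before adjustment was under 0.05, against 17.2% of all genes. By DESeq2 5 were higher and 1 lower, where 3.53% of its genes were called higher and 4.34% lower. By limma-voom 3 were higher and 0 lower, where 0.683% of all genes were called higher and 1.46% lower. The median log2 fold change of the 10 was 0.19, beside 0.00 over all genes tested.

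**Figure D1:**
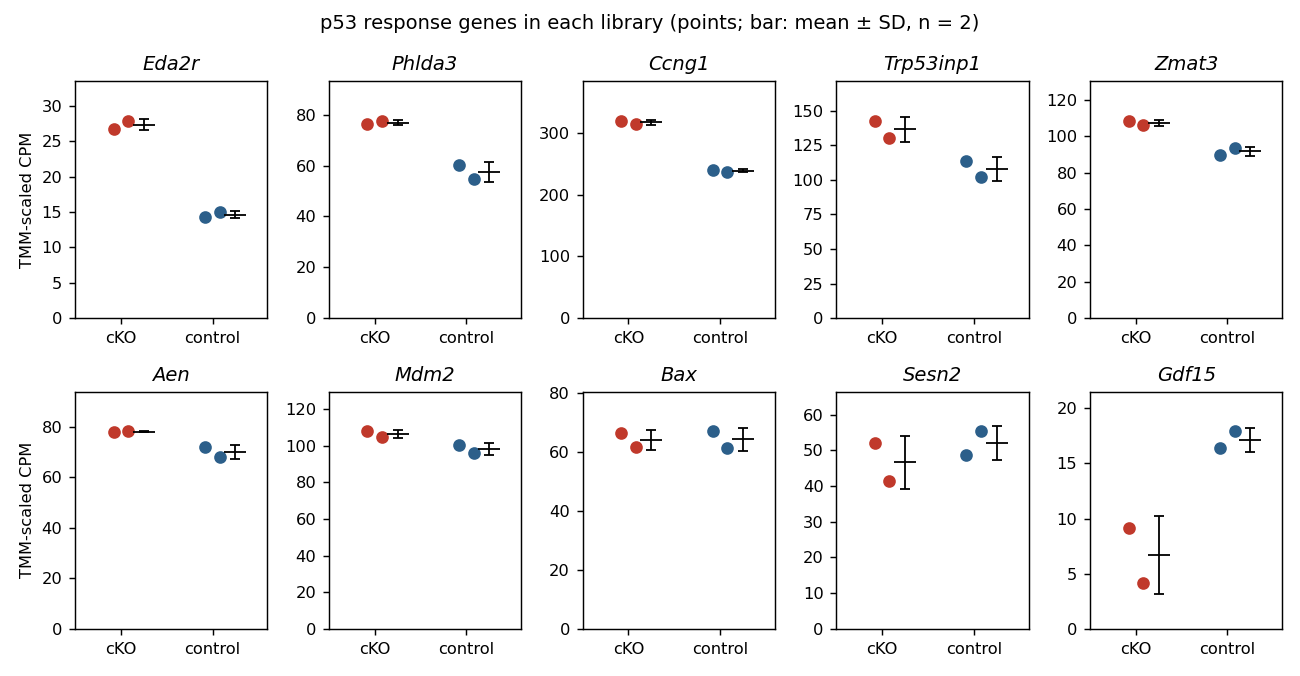
Level of each p53 response gene in TMM-scaled CPM (vertical axes, from 0) in the 2 cKO and 2 control libraries; points are libraries and bars the mean ± SD (n = 2). Eda2r had 26.8 and 27.9 CPM in cKO against 14.3 and 15.0 CPM in controls, while Bax overlapped between the groups.

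Response elements of p53 consist of a pair of 10-base units, each with a C and a G around an A/T core. The promoters of these genes were read in RefSeq windows of 250 bases before to 50 after the start (build GRCm38, which is mm10), and 8 of the 10 genes matched. The p53 decamer consensus, which reads alike on both strands, was found in 4 of these 8, Bax, Aen, Mdm2 and Ccng1, against 9.55% of the 27025 genes with a window. A pair of decamers with both cores kept, at most 3 mismatches in all and a gap of at most 13 bases was found in 2, Bax and Aen, against 7.63% of genes. No decamer was in the windows of Eda2r, Phlda3, Sesn2 or Gdf15, which says only that these letters are not in these windows. The 4 matches are shown because they belong to genes with different readouts, called higher (Ccng1), higher without passing (Aen and Mdm2) and overlapping (Bax). Each is given 5′ to 3′ on the gene's strand with the decamers in capitals. The Bax match lies on the minus strand at chr7:45467074-45467103 and has 2 mismatches and a gap of 1 base. The Aen match lies on the plus strand at chr7:78895932-78895961 and has 3 mismatches and a gap of 0 bases. That of Mdm2 lies on the minus strand at chr10:117710925-117710954 and that of Ccng1 on the minus strand at chr11:40755452-40755481, each a single decamer.
Ccng1: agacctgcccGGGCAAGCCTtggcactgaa
Mdm2: agtcggatagGAACTTGCCTagcgaccatt
Aen: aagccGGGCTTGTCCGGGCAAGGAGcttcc
Bax: tcccAGGCAAGCTTtGAACTTGCGGcaatt

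Among the feedback genes, Ccng1 encodes cyclin G1, which recruits a phosphatase to Mdm2 and so feeds back on p53 (ENSMUSG00000020326.7, chromosome 11, 40748552 to 40755311, minus strand). It had 24800 and 25506 counts in the cKO libraries, against 15705 and 17885 counts in the controls. Scaled by library size and TMM factor these were 320 and 314 CPM in cKO, against 240.1 and 237 CPM in controls. Both cKO libraries lay above both controls, and the replicates of each group were close together. Ccng1 rose 1.33-fold in cKO (log2 0.41 ± 0.06 SE, 95% interval 0.27 to 0.54; edgeR adjusted p = 0.0373). Without control replicate 1 the log2 fold change was 0.42 (edgeR adjusted p = 0.148) and without control replicate 2 it was 0.40 (edgeR adjusted p = 0.206), so the call was lost in both fits at a like size.

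Mdm2 encodes the ubiquitin ligase that marks p53 for degradation and is itself a p53 target. It had 108 and 105 CPM in cKO, against 101 and 96.0 CPM in controls. The groups did not overlap, but the gap was small. The log2 fold change was 0.12 ± 0.06, with a 95% interval of -0.02 to 0.25 (edgeR adjusted p = 0.37). Its relative Mdm4, which also inhibits p53, had 141 and 134 CPM in cKO against 131 and 127 CPM in controls (log2 fold change 0.10, edgeR adjusted p = 0.456).

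The receptor gene of the group, Eda2r, encodes a death-domain-free member of the TNF receptor family that binds the A2 form of ectodysplasin (ENSMUSG00000034457.10, chromosome X, 97333840 to 97377216, minus strand). It had 2079 and 2270 counts in the cKO libraries, against 932 and 1132 counts in the controls, or 26.8 and 27.9 CPM against 14.3 and 15.0 CPM. The groups were well apart, and this was the largest increase of the 10 genes in the fit with all libraries. Eda2r rose 1.87-fold in cKO (log2 0.90 ± 0.09 SE, 95% interval 0.69 to 1.12; edgeR adjusted p = 0.0264). The gene is X-linked, and the control library with high Xist lay within 1 CPM of the other control. Without control replicate 1 the log2 fold change was 0.87 (edgeR adjusted p = 0.116) and without control replicate 2 it was 0.94 (edgeR adjusted p = 0.125). The ligand gene Eda was at 9.27 and 9.97 CPM in cKO and 8.76 and 9.04 CPM in controls (log2 fold change 0.11, edgeR adjusted p = 0.736). The related receptor Edar was at 6.68 and 4.13 CPM in cKO and 6.06 and 4.67 CPM in controls (log2 fold change 0.01, edgeR adjusted p = 0.989).

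Phlda3 and Trp53inp1 act on growth signalling and on p53 itself. Phlda3 encodes a pleckstrin-homology protein that competes with the kinase AKT for membrane lipids. It had 76.2 and 77.7 CPM in cKO, against 60.2 and 54.7 CPM in controls, with no overlap. Its log2 fold change of 0.42 ± 0.07 was as large as that of Ccng1, at an edgeR adjusted p of 0.0521. Phlda3 passed when DESeq2 (adjusted p = 0.000258), limma-voom (0.0395) or library sizes alone (edgeR, 0.0389) were used, and edgeR without cKO replicate 1 gave 0.0443. It did not pass in edgeR without cKO replicate 2 (adjusted p = 0.0942), without control replicate 1 (0.140) or without control replicate 2 (0.255), nor with the replicate number as a block (0.101). Its relatives Phlda1 and Phlda2 had edgeR adjusted p-values of 0.654 and 0.911.

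Trp53inp1 encodes a nuclear stress protein that aids p53 and autophagy. Its level was 143 and 130.2 CPM in cKO, against 114 and 102 CPM in controls. The lower cKO library still exceeded the higher control, with a wider spread in each group than for Ccng1. The log2 fold change was 0.34 ± 0.08 (edgeR adjusted p = 0.104), and DESeq2 gave an adjusted p of 0.00566. Its paralog Trp53inp2 overlapped between genotypes, at 161 and 175 CPM in cKO against 164 and 147 CPM in controls.

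Zmat3 encodes an RNA-binding zinc finger protein, and Aen a nuclease that acts in apoptosis. Zmat3 had 109 and 106 CPM in cKO, against 89.9 and 93.3 CPM in controls. Its groups did not overlap, and the log2 fold change was 0.23 ± 0.06 (edgeR adjusted p = 0.112, DESeq2 adjusted p = 0.0348). Aen had 78.0 and 78.2 CPM in cKO, against 71.9 and 67.9 CPM in controls. The cKO libraries were nearly equal and above both controls, at 0.16 ± 0.06 on the log2 scale (edgeR adjusted p = 0.246). Isg20, which encodes a related nuclease, was lower in both cKO libraries (16.4 and 13.4 CPM against 20.6 and 26.6 CPM in controls; edgeR adjusted p = 0.11).

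Bax encodes the pore-forming protein of the mitochondrial death pathway. It had 66.6 and 61.6 CPM in cKO, against 67.02 and 61.5 CPM in controls. Each group held 1 library near either value, so the groups overlapped almost fully. The log2 fold change was 0.00 ± 0.07, with a 95% interval of -0.18 to 0.17 (edgeR adjusted p = 0.988). In the annotation 12.2% of its exon bases are shared with another annotated gene on the same strand, Gm45808. Of 13 tested members of the BCL2 family, 0 passed edgeR, DESeq2 or limma-voom. For 3 of the 13 the unadjusted edgeR p was under 0.05, a share near the 17.2% of all genes. The 3 of lowest p were the death-promoting Bcl2l11 (Bim; log2 fold change 0.38) and the protective Bcl2l1 (Bcl-xL; -0.21) and Bcl2l2 (Bcl-w; -0.19), with edgeR adjusted p-values of 0.202, 0.181 and 0.199. Bbc3 (Puma) and Pmaip1 (Noxa), death genes driven by p53 that were picked here after their values were seen, had log2 fold changes of -0.06 and 0.33 (edgeR adjusted p = 0.884 and 0.594).

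**Figure D2:**
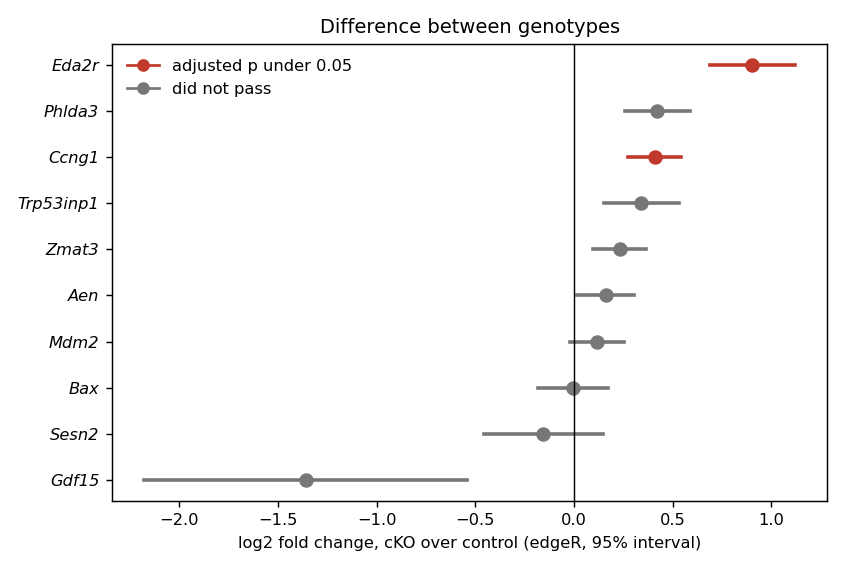
Log2 fold change of cKO over control (horizontal axis) for the 10 p53 response genes, with points for the edgeR estimate and lines for its 95% interval. Eda2r at 0.90 and Ccng1 at 0.41, in red, passed the adjusted threshold, and Gdf15 at -1.36 had the widest interval.

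Gdf15 and Sesn2 are the members that also answer to ATF4 and CHOP. Gdf15 encodes a secreted stress cytokine of the TGF-beta superfamily (ENSMUSG00000038508.7, chromosome 8, 70629393 to 70632456, minus strand). It had 712 and 341 counts in the cKO libraries, against 1070 and 1351 counts in the controls, or 9.18 and 4.20 CPM against 16.4 and 17.9 CPM. Both cKO libraries lay below both controls, and cKO replicate 2 lay far below cKO replicate 1. The log2 fold change was -1.36 ± 0.34, with a 95% interval of -2.18 to -0.54 (edgeR adjusted p = 0.118). The value depends on the cKO library used. Without cKO replicate 1 it was -2.03, and without cKO replicate 2 it was -0.90. Each of these fits keeps 1 cKO library, so the gap between the 2 cKO libraries does not enter its test. DESeq2 with all libraries called Gdf15 lower (adjusted p = 0.000847). Gfral, the receptor of Gdf15, had 0 to 6 counts per library and was not tested.

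Sesn2 encodes sestrin 2, a leucine sensor that restrains the growth kinase mTORC1. It had 51.9 and 41.4 CPM in cKO, against 48.6 and 55.3 CPM in controls. Here cKO replicate 2 was the lowest of the 4 libraries and cKO replicate 1 lay between the controls. The log2 fold change was -0.16 ± 0.12 (edgeR adjusted p = 0.591). It was -0.33 without cKO replicate 1 and 0.00 without cKO replicate 2 (edgeR adjusted p = 0.161 for the fit without cKO replicate 1). The other sestrins did not share this pattern: Sesn1 was at 22.1 and 22.2 CPM in cKO and 24.0 and 21.4 CPM in controls, and Sesn3 at 58.0 and 63.2 CPM in cKO and 49.1 and 50.2 CPM in controls (edgeR adjusted p = 0.896 and 0.114).

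Genes of the ATF4 and CHOP response were set beside Gdf15 and Sesn2. Of 12 such genes, which include Sesn2, 1 fell and 0 rose by edgeR, where 0.908% of all genes fell. DESeq2 called 4 lower (4.34% of all genes) and limma-voom 3 (1.46%). In 10 of the 12 both cKO libraries lay below both controls, against 24.9% of all genes. Slc7a11, the cystine transporter, which p53 is known to repress, fell to 24.1 and 16.8 CPM in cKO, against 49.7 and 45.7 CPM in controls (log2 fold change -1.22 ± 0.17, edgeR adjusted p = 0.0375). Atf3, a stress transcription factor, was at 16.7 and 11.0 CPM in cKO and 33.9 and 30.1 CPM in controls (edgeR adjusted p = 0.0521). Trib3, a pseudokinase that feeds back on ATF4, was at 73.1 and 44.6 CPM in cKO and 119 and 126 CPM in controls (0.0771). Ddit3, which encodes CHOP, was at 73.6 and 43.4 CPM in cKO and 103 and 101 CPM in controls (0.148). As with Gdf15, cKO replicate 2 was the lowest library for each of these 4 genes. The list's median log2 fold change was -0.57, beside 0.00 over all genes. It was -0.89 without cKO replicate 1 and -0.30 without cKO replicate 2. Without control replicate 1 the median was -0.61 and without control replicate 2 it was -0.50. When the replicate number was a block in edgeR, 0 of the list were called, where 20 of all genes were called lower.

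**Figure D3:**
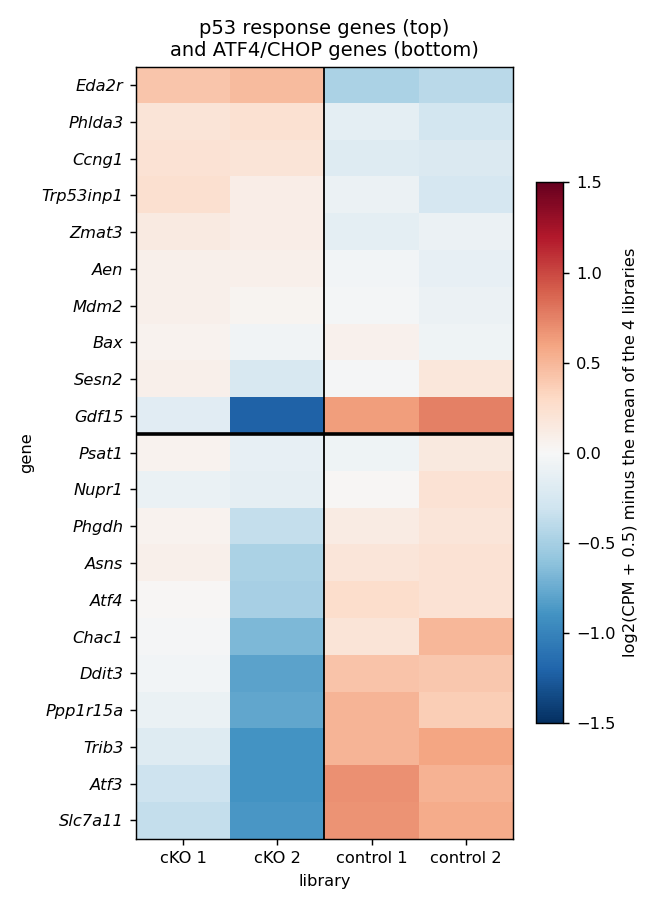
Level in each library of the 10 p53 response genes (top) and 11 ATF4 and CHOP response genes other than Sesn2 (bottom), as log2(CPM + 0.5) minus the mean of the 4 libraries (colour, red high and blue low); columns are cKO 1, cKO 2, control 1 and control 2. In cKO replicate 2 Gdf15 stood at 4.20 CPM and each of the 11 lower genes was at its lowest, while Eda2r and Ccng1 were close to equal in the 2 cKO libraries.

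Of the genes listed as p53 and its regulators, which leave out the members Mdm2 and Ccng1, 0 passed the test. Trp53, which encodes p53, had 87.8 and 73.4 CPM in cKO, against 80.4 and 86.5 CPM in controls. The groups overlapped, at a log2 fold change of -0.05 ± 0.10 with a 95% interval of -0.28 to 0.18 (edgeR adjusted p = 0.845). p53 is controlled mainly at the protein level, which was not measured here. The list had 16 tested genes, of which 0 passed by edgeR, DESeq2 or limma-voom and 1, the ubiquitin ligase gene Rchy1, had an unadjusted edgeR p under 0.05 (log2 fold change 0.22, edgeR adjusted p = 0.251). The median over these 16 was 0.07 on the log2 scale, and it was 0.03 without control replicate 2. With library sizes alone it was 0.13, where the median of all genes was 0.07.

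Cdkn1a encodes p21, the main effector of p53 in cell cycle arrest. It had 297 and 266 CPM in cKO, against 219.6 and 235 CPM in controls. The groups did not overlap, and the log2 fold change was 0.31 ± 0.08 (edgeR adjusted p = 0.115). Other arrest genes higher in both cKO libraries were Psrc1 (log2 fold change 0.50, edgeR adjusted p = 0.0679) and the polo-like kinase gene Plk2 (0.28, edgeR adjusted p = 0.108). Ccng2, the relative of Ccng1, went the other way, at 31.6 and 31.4 CPM in cKO against 37.6 and 42.4 CPM in controls (log2 fold change -0.35, edgeR adjusted p = 0.126).

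Over 39 further p53 targets for arrest, cell death, DNA repair and metabolism, 0 passed edgeR and 16 had an unadjusted edgeR p under 0.05, where 17.2% of all genes did. By DESeq2 6 were higher and 3 lower (3.53% and 4.34% of all genes), and by limma-voom 2 were higher and 0 lower (0.683% and 1.46%). In 19 of the 39 both cKO libraries exceeded both controls and in 5 they lay below, against 24.9% of all genes in each direction. The median log2 fold change was 0.17, and it was 0.05 without cKO replicate 1 and 0.21 without control replicate 1. Among the cell death genes Ei24 (log2 fold change 0.28) and the apoptosome gene Apaf1 (0.29) were higher in both cKO libraries, with edgeR adjusted p-values of 0.111 and 0.143, and Perp was at 4.24 and 3.61 CPM in cKO against 1.97 and 2.64 CPM in controls. Among the metabolic genes Cpt1c, a carnitine acyltransferase relative (0.42, edgeR adjusted p = 0.055), and the adenylate kinase Ak1 (0.32, 0.0571) were higher in both cKO libraries. The glutaminase gene Gls2 was at 1.04 and 0.96 CPM in cKO, against 2.66 and 4.92 CPM in controls (edgeR adjusted p = 0.0746). With library sizes alone, 30 of the 39 were above 0 in place of 24, and 2 were called higher. The repair and metabolism genes then had a median of 0.04 in place of -0.02. That scaling also moved the median of all genes to 0.07 from 0.00, and 116 of all genes were called higher in place of 61.

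**Figure D4:**
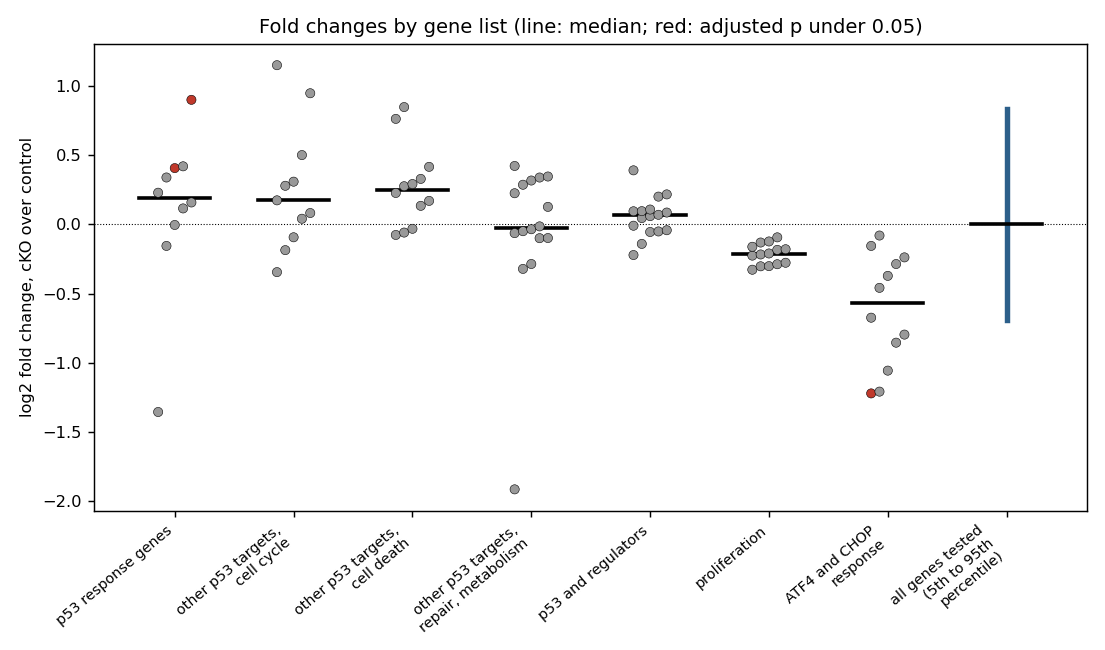
Log2 fold change of cKO over control (vertical axis) for each tested gene of 7 lists, with the median as a line and genes at an edgeR adjusted p under 0.05 in red; the bar at the right spans the 5th to 95th percentile of all 15522 genes. The p53 response genes had a median of 0.19, the ATF4 and CHOP genes of -0.57 and the proliferation genes of -0.21.

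Proliferation genes that p53 and p21 are known to lower were below 0 in 14 of 14 cases, beside 7698 of all 15522 genes tested. By edgeR, DESeq2 or limma-voom 0 passed, where 0.908%, 4.34% and 1.46% of all genes were called lower. For 5 of the 14 the unadjusted edgeR p was under 0.05, against 17.2% of all genes. Ccna2, which encodes cyclin A2, had 35.5 and 38.1 CPM in cKO against 43.3 and 47.4 CPM in controls (log2 fold change -0.30, edgeR adjusted p = 0.149). Cdk1, the mitotic kinase, had 31.2 and 34.7 CPM in cKO against 41.5 and 39.0 CPM in controls (-0.29, edgeR adjusted p = 0.179). The median was -0.21, and without control replicate 2 it was -0.03 with 5 of the 14 above 0.

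Levels between the genes were compared per kilobase of annotated exon (GENCODE M21). In cKO Ccng1 was the most abundant at 90.2 CPM per kb, followed by Phlda3 at 49.4 ± 0.697 and Bax at 40.7 ± 2.22 (SD, n = 2). Trp53inp1 (21.1) and Mdm2 (20.95), Aen (13.5) and Sesn2 (13.4), and Eda2r (4.65) and Gdf15 (3.61) were neighbours in CPM per kb whose cKO libraries overlapped. In controls the order was Ccng1 at 68.0 ± 0.593 CPM per kb, Bax at 40.8 ± 2.49, Phlda3 at 36.9 ± 2.49, Mdm2 at 19.3, Trp53inp1 at 16.7, Sesn2 at 15.0, Aen at 12.1, Gdf15 at 9.25, Zmat3 at 8.01 and Eda2r at 2.48. There only Trp53inp1 and Sesn2 were neighbours with overlapping libraries. Phlda3 stood above Bax in cKO and below it in controls, and Eda2r, the lowest in controls, shared the bottom of the order with Gdf15 in cKO.

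Across the 4 libraries Gdf15 stood apart from the other 9 genes, which were not equally close. Library profiles were compared by their distance (log2(CPM + 0.5), each centred on its mean). Ccng1 and Phlda3 lay 0.0935 apart and Mdm2 and Aen 0.0540 apart. Eda2r lay 0.482 from its nearest member, Ccng1, and Sesn2 lay 0.307 from its nearest, Bax. Gdf15 was the farthest gene from each of the other 9 and lay 1.33 from its nearest, Sesn2. The mean profile of the 10 was nearest to those of Tmem18, AU040320 and Rpp25l among 11776 candidates, at distances of 0.00631, 0.0105 and 0.0126. That mean includes the low Gdf15 value of cKO replicate 2, and these 3 genes had log2 fold changes of 0.11, 0.09 and 0.11 (edgeR adjusted p = 0.619, 0.582 and 0.757). With only 4 libraries such likeness is a description.

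Leaving out each library in turn kept Eda2r, Ccng1, Phlda3, Trp53inp1, Zmat3, Aen and Mdm2 above 0 and Gdf15 below 0 in all 4 fits. These fits reuse the libraries in which the differences were seen. The median log2 fold change of the 10 was 0.19 without cKO replicate 1 and 0.20 without cKO replicate 2. It was 0.20 without control replicate 1 and 0.19 without control replicate 2. In edgeR with all libraries and the replicate number as a block, 0 of the 10 were called higher, where 3 of all genes were. Bax changed sign between fits, and Sesn2 came to 0.00 without cKO replicate 2.

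**Figure D5:**
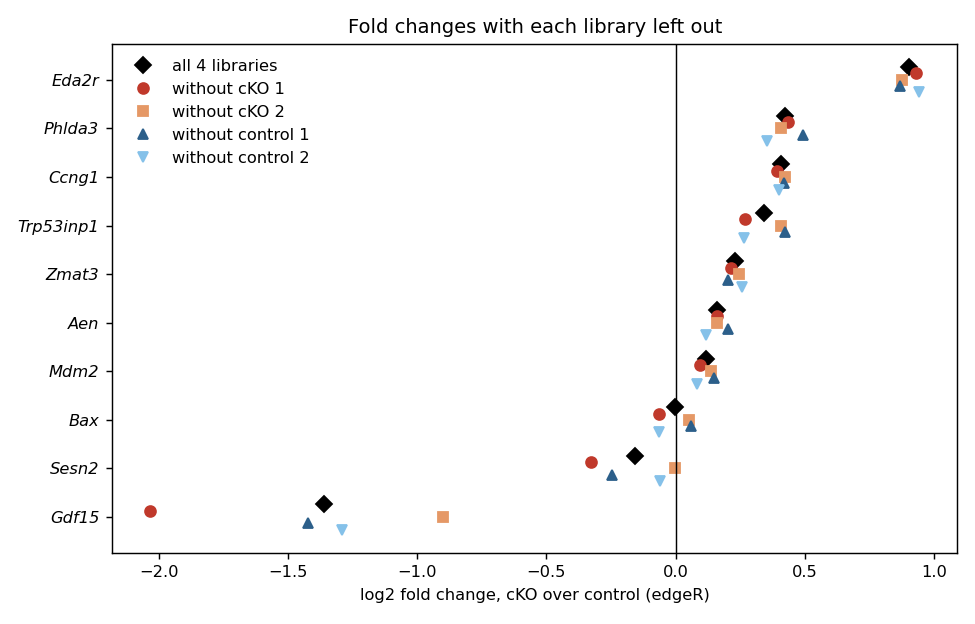
Log2 fold change of cKO over control (horizontal axis) for the 10 p53 response genes with all 4 libraries and with each library left out (symbols). The 7 upper genes stayed above 0 in every fit shown, while Gdf15 ranged from -2.03 without cKO replicate 1 to -0.90 without cKO replicate 2.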

How the data were processed

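The values are unnormalised counts for each gene symbol, as deposited by the authors in a single table. Among values of 1 to 40 in a library, 28.1% to 30.03% were multiples of 4, where even spacing gives 25%; the reason is not known, so a count may not be a single read, and counts divided by 4 were an alternative. HISAT2 2.2.1, StringTie 2.1.7, FastQC 0.11.9, Trim Galore 0.6.7 and build mm10 are listed without a role per the submitters' processing notes. Which program counted reads, with what strand setting and annotation, the sources used here do not give. No molecular identifiers are mentioned per the labels' protocols, so intervals cover counting and replicate error only. Genes were kept by filterByExpr (minimum count 10), scaled by TMM and tested with the edgeR 4.0.16 quasi-likelihood test (R 4.3.3; cKO over control, no covariate), with Benjamini-Hochberg adjustment over all 15522 genes at 0.05. CPM values are TMM-scaled, except marker sums, which use library size. Each standard error is the size of the log2 fold change divided by the root of edgeR's F. DESeq2 1.42.0, limma-voom 3.58.1, other scalings and filters, the replicate block and left-out libraries were alternatives, and the fits were tested on simulated data. The simulated replicates were set to vary less than these libraries did, so that check does not cover the spread seen here. Replicates differed beyond counting error (chi-square over degrees of freedom 42.1 in cKO and 38.5 in controls). GENCODE M21 held 96.5% of the symbols. Members and lists were chosen with earlier results of these data known. The text names all 10 genes, Trabd2b, Trp53, Cdkn1a, relatives and partners, called genes and the 3 nearest profiles. It also names other genes of the lists, not always those of lowest p. Ppp1r15a, E2f1 and Hmga2 are left out, though their edgeR p-values were lower than those of Ddit3, Cdk1 and Lmnb1, which are named.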

Additional observations from a re-analysis of the deposited data

How the results depend on the processing

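All 10 genes kept their direction under the 13 alternatives except Bax, whose log2 fold change was 0.0608 with library sizes alone and ran from -0.0645 to 0.0601 with a library left out; the cause was not tested. The number of members called higher was 5 with DESeq2 and 0 with the replicate block, and 0 to 3 with a library left out; the number called lower was 1 with DESeq2 and 0 to 1 with a library left out. The members' median was 0.26 with library sizes alone, a scaling that moved the median of all genes to 0.07. Over all genes, 116 were called higher with library sizes alone and 102 with the stricter filter. Higher and lower calls were 491 and 604 with DESeq2, 106 and 227 with limma-voom, and 128 and 243 with counts divided by 4. With a library left out, 1 to 312 were higher and 4 to 470 lower. Trabd2b was at -0.38 and passed with DESeq2, and ran from -0.54 (without cKO replicate 2) to -0.23 with a library left out. The labels share replicate numbers across genotypes, but nothing ties them to shared animals, and cKO and control replicate 1 deviated from their group means with a correlation of -0.12 over genes. The replicate block left 3 genes higher and 20 lower, with Eda2r at an edgeR adjusted p of 0.0513 and Ccng1 at 0.0886. The crossed replicate block, chosen after seeing the data, gave 223 higher and 341 lower, 3 members higher and 1 lower, and Trabd2b at -0.39 past the threshold (edgeR adjusted p = 0.0464). With 2 libraries per group the 95% intervals of Mdm2, Bax and Sesn2 include 0.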

Other observations

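Of 11 senescence genes, a state that p53 and p21 can enforce, 1 rose and 0 fell by edgeR, where 0.393% of all genes rose and 0.908% fell. DESeq2 called 3 higher (3.53% of all genes) and limma-voom 1 (0.683%). Igfbp3, which encodes a binding protein for insulin-like growth factors, had 227 and 211 CPM in cKO, against 144 and 142 CPM in controls (log2 fold change 0.62 ± 0.06, edgeR adjusted p = 0.0264). The call was lost with the replicate number as a block, where 0 genes of the list and 3 of all genes were called higher. Lmnb1, the lamin that senescent cells lose, was at 16.6 and 17.9 CPM in cKO and 19.4 and 22.3 CPM in controls (edgeR adjusted p = 0.269). The median log2 fold change of the list was 0.16, beside 0.00 over all genes, and it was 0.05 without cKO replicate 1, 0.09 without cKO replicate 2 and 0.07 without control replicate 2.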
